A study of Mus musculus with 16 samples.

Results

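The serine/arginine-rich (SR) splicing factors Srsf1, Srsf2, Srsf3, Srsf5, Srsf6 and Srsf7 and the Cdc2-like kinases Clk1, Clk2, Clk3 and Clk4 were followed in mouse embryonic stem (ES) cells, as 10 listed genes of the 22375 in the count tables. They were chosen by name, and each symbol was found once through the Ensembl identifier of its row. RNA-Seq was performed on WT cells (E14Tg2a) and on Cfp1 -/- cells, both of strain 129/OLA, grown on gelatin in serum and leukemia inhibitory factor, and either left untreated or given doxorubicin, a DNA damaging agent, for 6 hours. The dose is 1 μM in the treatment protocol and in the study's methods, although a label of the treated samples gives it as 1 mM. Every one of the 4 groups had 2 biological replicates, each run as 2 technical replicates that were summed here, which leaves n = 2 per group throughout. Each genotype is 1 cell line, so the loss of Cfp1 and any other difference between the lines cannot be told apart.

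SR proteins bind exonic sequences through RNA recognition motifs and recruit the spliceosome through a domain rich in serine and arginine. Clk kinases reside in the nucleus and phosphorylate that domain, which releases SR proteins from nuclear speckles and alters their activity, while the Srpk kinases phosphorylate them in the cytoplasm and promote their nuclear import. Genes of both classes are known to make unproductive transcripts besides the productive ones, through retained introns or exons that expose the transcript to nonsense-mediated decay. Cfp1, encoded by Cxxc1, binds unmethylated CpG dinucleotides and belongs to the Set1 complex that places H3K4me3 at promoters.

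The libraries held 23383421 to 29422711 counts on genes in untreated and 14880589 to 18551086 in treated cells, so that depth went with treatment. Technical replicates were close to sampling noise in 6 of the 8 biological replicates (chi-square divided by its degrees of freedom 0.998 to 1.05). In replicate 1 of treated WT cells and replicate 1 of treated Cfp1 -/- cells the runs differed far beyond it (9.61 and 42.9). Cxxc1 had a mean normalized count of 1182 ± 24.7 (SD) in untreated WT cells and of 3.12 ± 0.829 in untreated Cfp1 -/- cells, and the p53 target Mdm2 rose 6.43-fold in WT and 5.1-fold in Cfp1 -/- cells upon doxorubicin treatment. The 7 ES cell markers (Pou5f1, Sox2, Nanog, Zfp42, Esrrb, Sall4 and Tdgf1) were expressed in all 8 libraries, and all 7 were lower after treatment in both lines, their summed normalized count being 69594 to 91337 in untreated and 23423 to 29468 in treated WT cells, and 75619 to 78088 and 21969 to 29138 in Cfp1 -/- cells. The summed count of 6 fibroblast markers was 228 to 252 and 411 to 567 in untreated and treated WT cells and 106 to 123 and 391 to 533 in Cfp1 -/- cells, with 1 of the 6 at no more than 3 counts in every library. That of the primitive endoderm markers was 50 to 64.6 and 239 to 272 in WT and 175 to 206 and 496 to 538 in Cfp1 -/- cells. The trophoblast markers summed to 546 to 755 and 807 to 1006 in WT and to 1181 to 1357 and 957 to 1152 in Cfp1 -/- cells, and the neurectoderm markers Pax6 and Nes to 2787 to 3774 and 1155 to 3345 in WT and to 813 to 1176 and 498 to 552 in Cfp1 -/- cells. The part of these marker changes in the results that follow was not tested, and in RNA from bulk cultures fewer cells of a type and less RNA per cell cannot be told apart.

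All 10 genes passed the filter on low counts. Their levels were compared as the deposited normalized count per kb of exon. In untreated WT cells Srsf1 was highest at 5816 ± 49.3 (SD, n = 2), followed by Srsf7 at 4059 ± 426. Srsf6 (3373 ± 166), Srsf5 (3128 ± 276) and Srsf3 (3037 ± 44.8) came next, and the replicates of these neighbours in the order overlapped. The kinases were lower, with Clk1 at 988 ± 6.12, Clk4 at 608 ± 11.8, Clk2 at 471 ± 13.1 and Clk3 at 325 ± 45.6 normalized counts per kb, each clear of the next. Srsf2 was lowest, at 108 ± 8.83.

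The order changed after treatment. In treated WT cells Srsf5 was highest per kb at 3317 ± 301 (SD, n = 2), above Srsf1 at 2287 ± 142, Srsf6 at 1982 ± 322 overlapped both Srsf1 and Srsf7 (1669 ± 129), and Clk3 at 363 ± 5.01 lay above Clk2 at 294 ± 7.05. In untreated Cfp1 -/- cells Srsf1 (4126 ± 532) was again highest and Srsf7 (3119 ± 98.2) second, with Clk2 (321 ± 13.9) and Clk3 (286 ± 41) overlapping. In treated Cfp1 -/- cells Srsf5 (2388 ± 231), Srsf1 (2010 ± 468), Srsf7 (1561 ± 193) and Srsf6 (1392 ± 265) followed each other with overlapping replicates, and Clk4 (495 ± 42.8) overlapped Clk1 (484 ± 33.8). Raw counts scaled to the library total, per kb, gave the same order of the 10 genes in 4 of the 4 groups. Both scales divide all genes of a library by the same number, so this agreement was nearly fixed in advance.

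**Figure D1:**
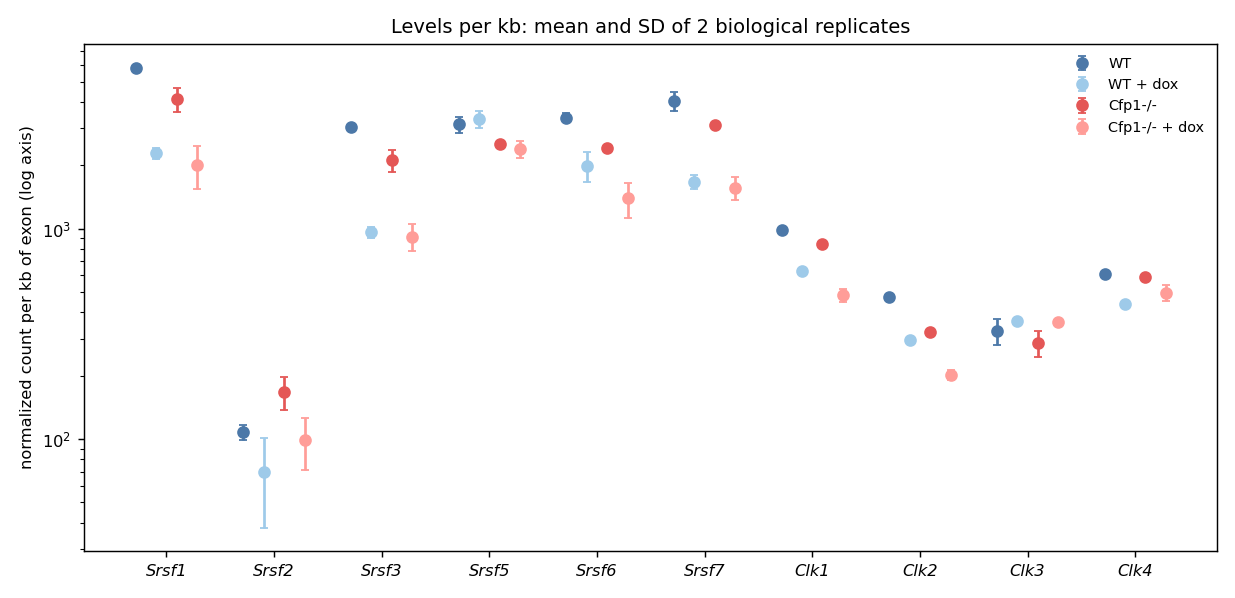
Deposited normalized count per kb of exon (vertical log axis) of each of the 10 genes in the 4 groups, as mean and SD of 2 biological replicates. Srsf1 is highest in both untreated groups at 5816 and 4126, Srsf5 is highest in both treated groups at 3317 and 2388, and Srsf2 is lowest in all of them.

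On NCBIm37, the build of the deposited tables, the SR factors lie as follows: Srsf1 (ENSMUSG00000018379) at chr11:87860875-87867257 (plus strand, 5710 exon bases), Srsf3 (ENSMUSG00000071172) at chr17:29169618-29180311 (plus strand, 5109 exon bases), Srsf5 (ENSMUSG00000021134) at chr12:82046491-82051494 (plus strand, 3988 exon bases), Srsf6 (ENSMUSG00000016921) at chr2:162757264-162762857 (plus strand, 3795 exon bases) and Srsf7 (ENSMUSG00000024097) at chr17:80599429-80606629 (minus strand, 2375 exon bases). The kinases are Clk1 (ENSMUSG00000026034) at chr1:58467033-58480910 (minus strand, 8139 exon bases), Clk2 (ENSMUSG00000068917) at chr3:88968717-88980843 (plus strand, 5299 exon bases), Clk3 (ENSMUSG00000032316) at chr9:57598518-57613667 (minus strand, 2494 exon bases) and Clk4 (ENSMUSG00000020385) at chr11:51075232-51095268 (plus strand, 5797 exon bases). Srsf1, Srsf2 and Clk4 share chromosome 11 and Srsf3 and Srsf7 share chromosome 17.

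The low value of Srsf2, the SR protein best known from nuclear speckles, carries a caveat. Srsf2 (ENSMUSG00000034120) lies at chr11:116711211-116714408 on the minus strand of NCBIm37, and a second entry of the tables, ENSMUSG00000093603, covers 3194 of these 3198 bases on the same strand and has 0 counts in every library. Reads that fall on overlapping genes are left uncounted in the union mode the authors used, so it is not known how much of its reads the raw counts of 132 to 600 per library for Srsf2 hold. None of the other 9 genes shares exonic bases with another gene on its own strand. Overlaps with genes on the opposite strand (for Srsf1, Srsf2, Clk3 and Clk4) were kept apart by the stranded counting.

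The first question was how these genes responded to doxorubicin in WT cells. Of the SR factors, 4 of 6 fell (Srsf1, Srsf3, Srsf6 and Srsf7), and of the kinases 3 of 4 fell (Clk1, Clk2 and Clk4), while none of the 10 rose, also at an unadjusted p under 0.05 and by DESeq2's Wald test. A call here is an adjusted p-value under 0.05 in edgeR's quasi-likelihood test with the Benjamini-Hochberg adjustment over all 15758 genes tested, of which 21.8% were called lower and 26.5% higher (11.7% and 36.4% when the libraries were scaled to their total count). The median log2 fold change of the 10 genes was -0.62, of the 6 SR factors -0.98 and of the 4 kinases -0.52, against 0.06 for all genes tested.

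Srsf3, the smallest SR protein, which also takes part in mRNA export, changed most. Its normalized counts were 15677 and 15353 in untreated and 5138 and 4708 in treated WT cells. The treated libraries were far below the untreated ones and the replicates were close to each other. The log2 fold change was -1.61 ± 0.147 (SE, adjusted p = 3e-05 in edgeR's quasi-likelihood test), a decrease to 0.328 of the untreated level, and 2.87% of all genes tested had a lower fold change. In edgeR's fit Srsf3 was the single member that also passed the study's stricter limits, a 2.5-fold change and a mean of 200 normalized counts. Of all genes tested, 7.91% passed these limits in either direction. The study set these limits on DESeq's values. Srsf1, 2.46-fold lower in edgeR's fit, had a log2 fold change of -1.35 in DESeq2's Wald test (adjusted p = 1.85e-11). That is beyond 2.5-fold, so Srsf1 passed the limits there.

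Srsf1, a general splicing factor that binds exonic enhancers, had 33008 and 33406 normalized counts without doxorubicin and 12486 and 13636 with it. Srsf7, an SR protein with a zinc knuckle that can act as an adaptor for mRNA export, had 10355 and 8923 against 4181 and 3749. The groups did not overlap for either gene. Srsf1 fell by 1.30 ± 0.173 on the log2 scale (SE, edgeR adjusted p = 0.000257) and Srsf7 by 1.24 ± 0.142 (adjusted p = 0.000107), and 5.22% and 5.92% of all genes tested had a lower fold change. Srsf6, a regulator of alternative splicing, had 13246 and 12353 normalized counts in untreated and 8385 and 6655 in treated cells, a smaller change of -0.72 ± 0.166 (adjusted p = 0.00564).

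Srsf5, likewise a splicing regulator, was not called lower. Its normalized counts were 13253 and 11696 in untreated and 14076 and 12377 in treated WT cells. The groups overlapped. The log2 fold change was 0.13 with a 95% interval from -0.17 to 0.43 (edgeR adjusted p = 0.451). Srsf2 had 337 and 300 normalized counts without and 272 and 139 with doxorubicin, a log2 fold change of -0.59 ± 0.322 (adjusted p = 0.157). The treated replicates of Srsf2 lay far apart, and without replicate 1 of treated WT cells the value was -1.15 (adjusted p = 0.0197), whereas without replicate 2 it was -0.19 (adjusted p = 0.655). With the replicate block, a term for the replicate number, Srsf2 fell by 0.64 (adjusted p = 0.0201), which made 8 of the 10 genes lower. The share of all genes called with this block is not given here, so counts of genes called under it have no background beside them.

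Among the kinases, Clk1 had 8075 and 8005 normalized counts in untreated and 5221 and 5025 in treated WT cells, and Clk2 had 2547 and 2449 against 1533 and 1585. Both groups were tight and clear of each other. Clk1 fell by 0.60 ± 0.117 on the log2 scale (SE, edgeR adjusted p = 0.00222) and Clk2 by 0.63 ± 0.121 (adjusted p = 0.00205), so that 0.658 and 0.644 of the untreated levels remained. Clk4, the closest relative of Clk1, had 3573 and 3477 against 2588 and 2466 and a log2 fold change of -0.43 ± 0.122 (adjusted p = 0.0148). That call was lost without replicate 1 of untreated WT cells (adjusted p = 0.0772) and without replicate 2 of treated WT cells (adjusted p = 0.0695). Clk3 had 730 and 891 normalized counts without and 896 and 914 with doxorubicin, a log2 fold change of 0.21 with a 95% interval from -0.16 to 0.57 (adjusted p = 0.328).

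**Figure D2:**
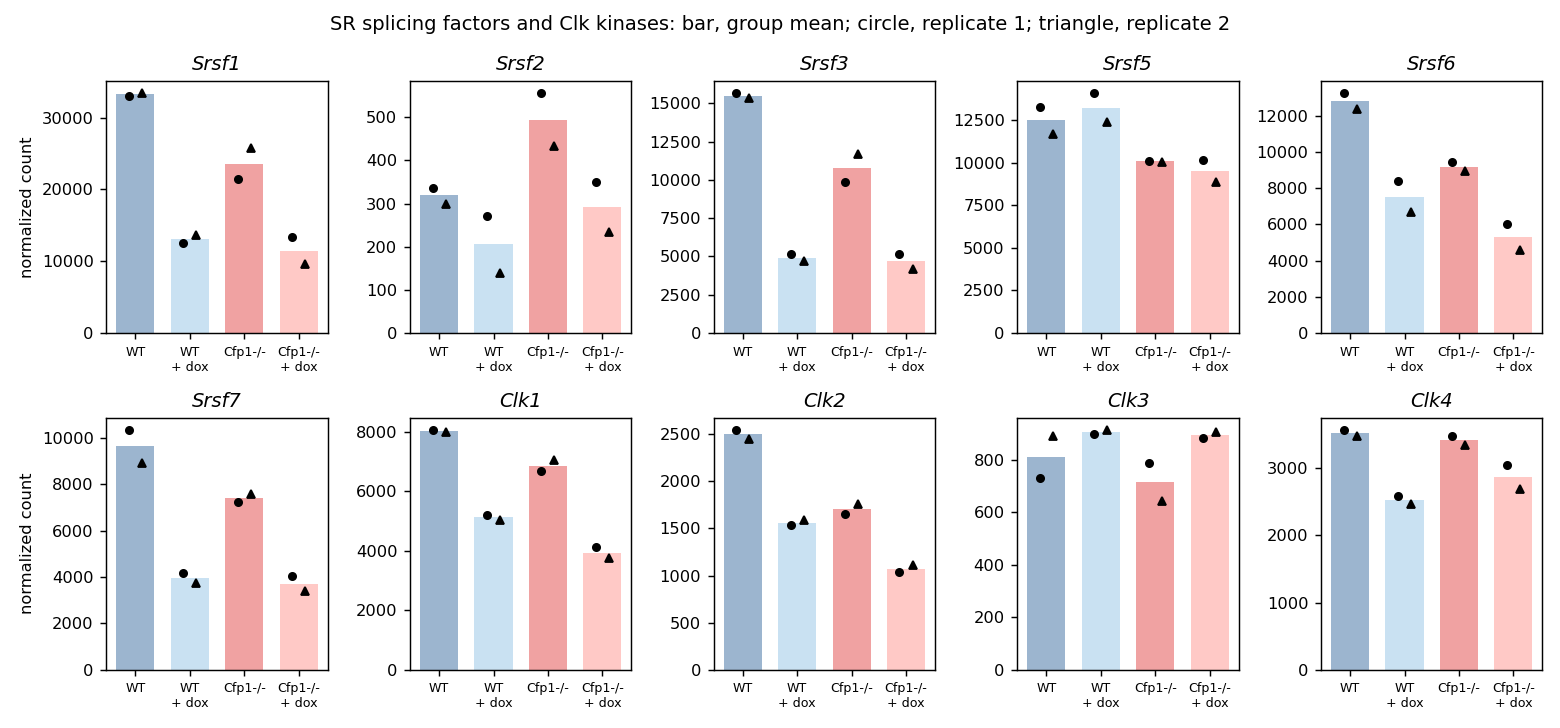
Normalized count (vertical axes from 0, each gene on its own scale) of the 10 genes in each of the 8 biological replicates, with the group mean as a bar. The treated libraries of Srsf1, Srsf2, Srsf3, Srsf6, Srsf7, Clk1, Clk2 and Clk4 lie below the untreated libraries of the same line. Of these, Srsf2 was called lower in neither line and Clk4 in WT cells only. The treated libraries of Srsf5 overlap the untreated ones and those of Clk3 lie above them.

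These calls depended on how the libraries were scaled. Scaling to the total count moved the median fold change of all genes tested by 0.31 on the log2 scale, and under it Srsf1 (-0.99), Srsf3 (-1.30) and Srsf7 (-0.92) stayed lower, Srsf6 (-0.41), Clk1 (-0.29), Clk2 (-0.32) and Clk4 (-0.12) no longer passed the test, and Srsf5 (0.44, adjusted p = 0.0183) and Clk3 (0.52, adjusted p = 0.0229) passed as higher. This scaling moves all genes by nearly the same amount, so that Srsf3 stayed lowest and Clk3 highest of the 10 by construction. The shift of the median was 0.21 in Cfp1 -/- cells and 0.19 between the untreated lines.

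**Figure D3:**
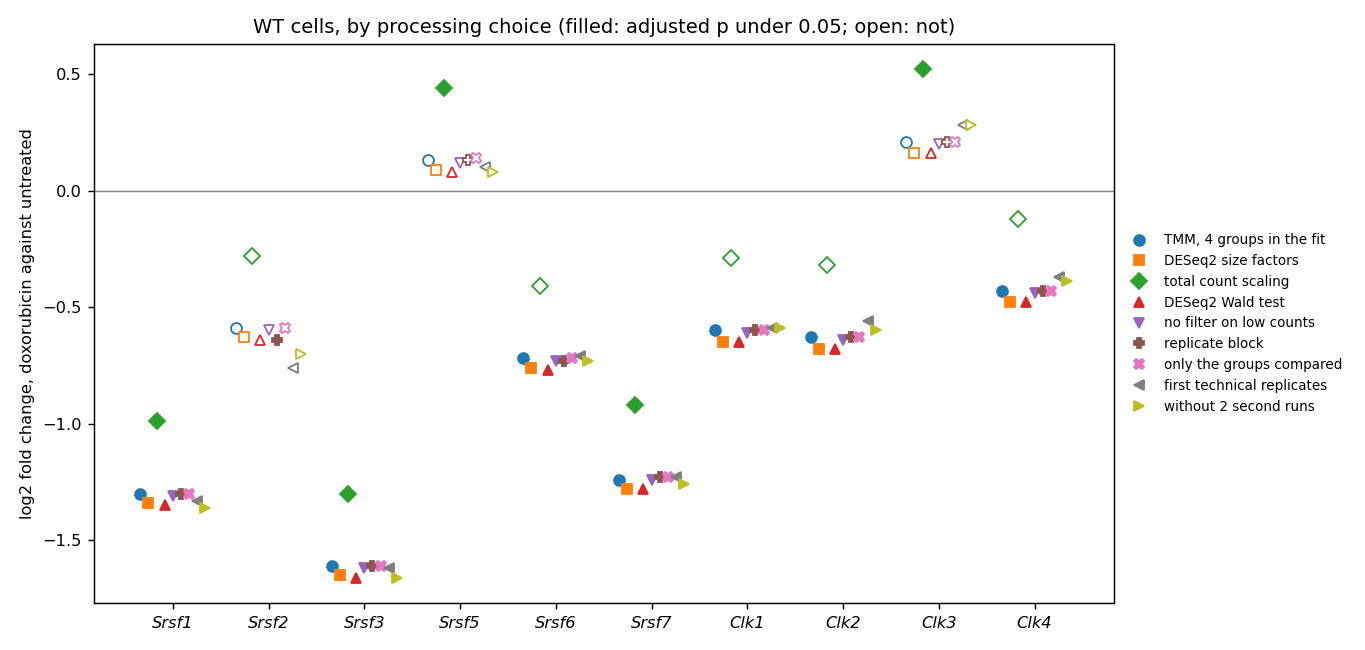
Log2 fold change of the 10 genes upon doxorubicin treatment in WT cells (vertical axis) under 9 processing choices (symbols), filled where the adjusted p-value was under 0.05. Total count scaling gives the highest value for every gene, with Srsf5 at 0.44 and Clk3 at 0.52 called higher, and Srsf1, Srsf3 and Srsf7 are called lower under every choice.

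The promoters of the genes at both ends of this range are shown with every CpG in capitals, because Cfp1 binds that dinucleotide: Srsf3 and Srsf1, which fell most in WT cells, Srsf5 and Clk3, which passed the test in neither line, and Clk2, which was lower in Cfp1 -/- than in WT cells with and without doxorubicin. The sequences are from RefSeq on GRCm38.p6, a later build than that of the count tables, and read 5′ to 3′ on the gene's strand. Srsf3 lies at chr17:29032410-29032709 (plus strand), Srsf1 at chr11:88047123-88047422 (plus), Srsf5 at chr12:80945249-80945548 (plus), Clk3 at chr9:57765065-57765364 (minus) and Clk2 at chr3:89164545-89164844 (plus).
Srsf3: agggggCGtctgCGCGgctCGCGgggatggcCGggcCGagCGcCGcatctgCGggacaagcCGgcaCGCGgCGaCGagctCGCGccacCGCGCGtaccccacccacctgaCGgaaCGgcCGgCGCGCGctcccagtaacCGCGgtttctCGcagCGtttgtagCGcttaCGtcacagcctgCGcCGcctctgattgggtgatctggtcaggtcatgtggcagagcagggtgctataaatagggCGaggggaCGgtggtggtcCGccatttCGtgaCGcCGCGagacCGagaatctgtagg
Srsf1: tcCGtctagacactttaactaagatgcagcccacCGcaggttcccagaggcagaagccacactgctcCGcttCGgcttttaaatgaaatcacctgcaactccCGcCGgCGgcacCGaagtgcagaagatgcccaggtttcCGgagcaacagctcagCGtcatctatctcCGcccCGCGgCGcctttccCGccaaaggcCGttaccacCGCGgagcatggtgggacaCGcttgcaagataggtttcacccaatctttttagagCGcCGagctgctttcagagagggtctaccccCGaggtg
Srsf5: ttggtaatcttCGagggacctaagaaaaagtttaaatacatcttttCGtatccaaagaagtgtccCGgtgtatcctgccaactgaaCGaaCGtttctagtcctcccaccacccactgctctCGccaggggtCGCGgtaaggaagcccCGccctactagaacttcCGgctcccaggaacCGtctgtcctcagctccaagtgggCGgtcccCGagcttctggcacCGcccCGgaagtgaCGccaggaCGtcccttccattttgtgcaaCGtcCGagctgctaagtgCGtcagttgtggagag
Clk3: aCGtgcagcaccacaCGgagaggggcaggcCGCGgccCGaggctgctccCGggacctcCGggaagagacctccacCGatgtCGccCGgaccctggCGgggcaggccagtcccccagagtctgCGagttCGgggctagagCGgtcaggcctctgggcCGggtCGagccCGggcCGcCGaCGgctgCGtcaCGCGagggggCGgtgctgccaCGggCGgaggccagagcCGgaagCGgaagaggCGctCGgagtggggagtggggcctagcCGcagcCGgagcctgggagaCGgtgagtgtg
Clk2: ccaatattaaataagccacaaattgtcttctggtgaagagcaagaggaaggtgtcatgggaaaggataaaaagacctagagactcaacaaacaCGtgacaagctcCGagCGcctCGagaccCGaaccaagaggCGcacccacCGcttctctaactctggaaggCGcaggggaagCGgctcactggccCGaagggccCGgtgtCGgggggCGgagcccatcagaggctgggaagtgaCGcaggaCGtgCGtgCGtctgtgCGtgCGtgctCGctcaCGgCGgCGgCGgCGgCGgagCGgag

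Promoters were found for 9 of the 10 genes, all except Clk1. They held 20 to 45 CpG dinucleotides in 300 bases, against a median of 7 over 32851 promoters. That median is over all promoters, whether or not their genes are expressed here. It therefore does not set these genes apart from other expressed genes. The highest were Srsf6 with 45, Srsf3 with 42 and Srsf2 with 39, and the lowest were Srsf1 with 22 and Srsf5 with 20, a number that 26.5% of all promoters reached. Srsf3 and Srsf1, both of which fell, stood at 42 and 22, and Srsf5 and Clk3, which did not pass the test, at 20 and 33. The letters CCAAT, searched on both strands, occurred in 4 of the 9 (Srsf1, Srsf2, Srsf3 and Clk2) and in 37.4% of all promoters. TATAAA, on both strands, occurred in 2 of the 9 (Srsf2 and Srsf3) and in 13.6% of all, and CACGTG, which reads the same on both strands and holds a CpG, in 1 (Clk2) and in 7.15% of all. These matches describe the letters in this window only.

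The same comparison in Cfp1 -/- cells asked whether the response occurs without Cfp1. Srsf1, Srsf3, Srsf6 and Srsf7 fell in these cells as well, and so did Clk1 and Clk2, which makes 6 of 10 called lower and none higher by edgeR's quasi-likelihood test, where 21% of all genes tested were called lower and 27.8% higher (13.1% and 33.4% under total count scaling). At an unadjusted p under 0.05, 1 gene was higher (Clk3), and DESeq2's Wald test called 7 lower and 0 higher. The median log2 fold change of the 10 genes was -0.73, against 0.01 for all genes tested, and none of the 10 passed the stricter limits, which 7.61% of all genes tested passed.

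Srsf3 had 9896 and 11683 normalized counts in untreated and 5176 and 4197 in treated Cfp1 -/- cells, and Srsf1 had 21413 and 25709 against 13368 and 9591. The groups did not overlap for either gene, but the replicates were further apart than in WT cells. Srsf3 fell by 1.16 ± 0.146 on the log2 scale (SE, edgeR adjusted p = 0.000194), Srsf1 by 0.99 ± 0.172 (adjusted p = 0.00121) and Srsf7 by 0.96 ± 0.141 (adjusted p = 0.000488). Srsf7 had 7242 and 7572 normalized counts against 4031 and 3384, and Srsf6 had 9415 and 8951 against 5992 and 4571, with a log2 fold change of -0.75 ± 0.166 (adjusted p = 0.00447).

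Srsf5 again had overlapping groups, with 10089 and 10044 normalized counts in untreated and 10175 and 8874 in treated cells. Its log2 fold change was -0.04 with a 95% interval from -0.34 to 0.26 (edgeR adjusted p = 0.84), and 0.18 under total count scaling. Srsf2 had 556 and 433 normalized counts against 350 and 235, a log2 fold change of -0.71 ± 0.314 that missed the threshold (adjusted p = 0.0864) and passed it with the replicate block (-0.73, adjusted p = 0.00817) and in DESeq2's Wald test (-0.76, adjusted p = 0.0476).

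Clk1 had 6680 and 7047 normalized counts in untreated and 4134 and 3745 in treated Cfp1 -/- cells, and Clk2 had 1649 and 1754 against 1035 and 1112. The groups were separate for both kinases. The log2 fold changes were -0.76 ± 0.117 (SE, edgeR adjusted p = 0.000636) and -0.62 ± 0.121 (adjusted p = 0.00234). Clk4, with 3485 and 3347 against 3042 and 2692, had a log2 fold change of -0.21 ± 0.121 (adjusted p = 0.18), or 0.00 under total count scaling. Clk3, with 786 and 641 against 883 and 904, had one of 0.37 ± 0.163 (adjusted p = 0.0897). Without the second runs of the treated replicates 1, the runs that differed from the first, Clk3 passed as higher (0.44, adjusted p = 0.0445) and Srsf2 as lower (-0.80, adjusted p = 0.0366).

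**Figure D4:**
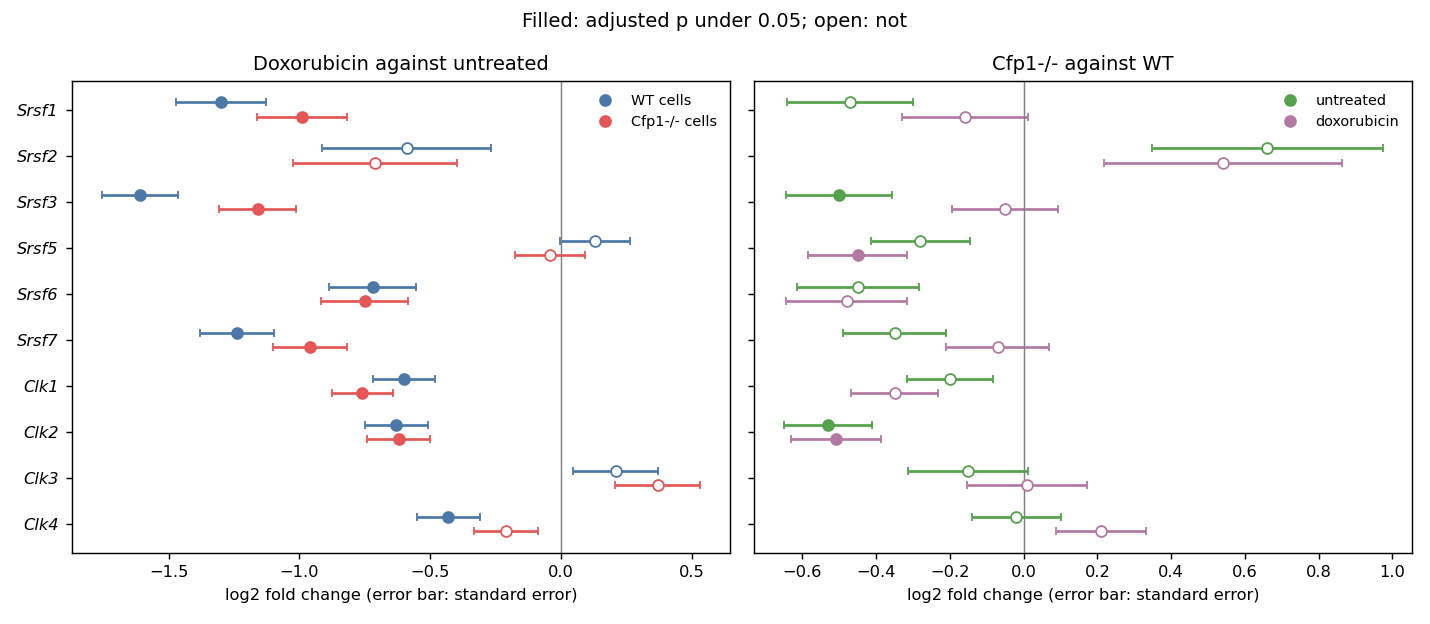
Log2 fold change with its standard error (horizontal axes) of the 10 genes upon doxorubicin treatment in both lines (left) and in Cfp1 -/- against WT cells with and without doxorubicin (right), filled where edgeR's adjusted p-value was under 0.05. Srsf3, Srsf1 and Srsf7 fall most in both lines, at -1.61, -1.30 and -1.24 in WT and -1.16, -0.99 and -0.96 in Cfp1 -/- cells, and Clk2 is the single gene filled in both comparisons of the right panel.

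The responses of both lines were then set against each other by an interaction term. None of the 10 genes passed edgeR's quasi-likelihood test of this difference, with 0 at an unadjusted p under 0.05 and 0 by DESeq2, and 0.235% of all genes tested passed. The largest difference was that of Srsf3, whose log2 fold change was 0.45 higher in Cfp1 -/- than in WT cells with a 95% interval from -0.00 to 0.91 (adjusted p = 0.475). Srsf1 differed by 0.31 (-0.23 to 0.85) and Srsf7 by 0.28 (-0.16 to 0.72). With 1 biological replicate left out these 3 differences ranged from 0.28 to 0.60, from 0.03 to 0.53 and from 0.12 to 0.41. Within replicate 2, Srsf1 had a log2 ratio of treated to untreated counts of -1.29 in WT and -1.42 in Cfp1 -/- cells, against -1.40 and -0.68 within replicate 1. In both lines the treated replicate 1 is the one whose technical runs differed far beyond sampling noise. The other 7 differences lay between -0.17 and 0.22. With n = 2 the intervals were wide, from -0.37 to 0.39 for Clk2 and from -1.13 to 0.88 for Srsf2, and differences within such bounds were not detectable.

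Without doxorubicin, the comparison of Cfp1 -/- with WT cells asked whether their levels differ between the lines. Srsf3 and Clk2 were lower in Cfp1 -/- cells, 2 of the 10, where 16.1% of all genes tested were called lower and 17.9% higher (10.2% and 24.4% under total count scaling), so the share of members called was near that of all genes. Srsf3, at 15677 and 15353 normalized counts in WT and 9896 and 11683 in Cfp1 -/- cells, had a log2 fold change of -0.50 ± 0.144 (SE, edgeR adjusted p = 0.0248). Clk2, at 2547 and 2449 against 1649 and 1754, had one of -0.53 ± 0.12 (adjusted p = 0.00896). The libraries of both genotypes were separate for both genes. Both calls were lost under total count scaling (-0.30 and -0.33), without replicate 1 of untreated WT cells and without replicate 1 of untreated Cfp1 -/- cells, and that of Srsf3 also without replicate 2 of untreated WT cells.

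Several further SR factors lay close to the threshold. Srsf1 (-0.47 ± 0.171, edgeR adjusted p = 0.0595), Srsf6 (-0.45 ± 0.165, adjusted p = 0.0602) and Srsf7 (-0.35 ± 0.139, adjusted p = 0.0776) missed it. With the replicate block they passed as lower (adjusted p = 0.0304, 0.00932 and 0.0296), and Srsf2 passed as higher (0.65, adjusted p = 0.0201 against 0.131 without the block), which made 5 of the 10 lower and 1 higher. Without the share of all genes called with the block, this rise in calls cannot be read as particular to the 10 genes. DESeq2's Wald test called Srsf1 and Srsf6 as well. Srsf5 (-0.28, 95% interval -0.58 to 0.02), Clk1 (-0.20, -0.46 to 0.06), Clk3 (-0.15, -0.52 to 0.21) and Clk4 (-0.02, -0.29 to 0.25) did not pass with or without the block. None of the 10 passed the stricter limits between the lines, untreated (3.33% of all genes tested) or treated (2.61%).

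With doxorubicin, Clk2 was again lower in Cfp1 -/- than in WT cells, and so was Srsf5, 2 of the 10 genes, where 10.8% of all genes tested were called lower and 15.1% higher. Clk2 had 1533 and 1585 normalized counts in treated WT and 1035 and 1112 in treated Cfp1 -/- cells, a log2 fold change of -0.51 ± 0.122 (SE, edgeR adjusted p = 0.0142) with separate groups. Srsf5 had 14076 and 12377 against 10175 and 8874, also separate, and a log2 fold change of -0.45 ± 0.134 (adjusted p = 0.0358). Under total count scaling, 7.96% of all genes were called lower and 17.9% higher by edgeR's test. There Clk2 stayed lower (-0.42, adjusted p = 0.0343) and Srsf5 no longer passed (-0.36, adjusted p = 0.0704). The call of Srsf5 was lost in 6 of the 8 fits that leave out 1 biological replicate, with adjusted p from 0.0507 to 0.189, and that of Clk2 in 3 of them (without replicate 2 of treated WT cells or either replicate of treated Cfp1 -/- cells), with adjusted p from 0.0551 to 0.0786. With the replicate block Srsf6 (-0.49, adjusted p = 0.00811 against 0.057 without it) and Clk1 (-0.35, adjusted p = 0.025 against 0.051) passed as lower too, which made 4 of the 10. That count, too, lacks the share of all genes called with the block.

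Srsf3, lower in Cfp1 -/- cells before treatment, had 5138 and 4708 normalized counts in treated WT and 5176 and 4197 in treated Cfp1 -/- cells, and these overlapped. Its log2 fold change between the treated lines was -0.05 with a 95% interval from -0.37 to 0.28, and those of Srsf1 (-0.16, -0.54 to 0.22) and Srsf7 (-0.07, -0.38 to 0.24) also spanned 0. Clk3 stood at 0.01 (-0.36 to 0.37), Clk4 at 0.21 (-0.06 to 0.48) and Srsf2 at 0.54 (-0.18 to 1.26). The treated libraries enter both this comparison and the responses, which therefore are not independent of each other.

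The rest of the splicing machinery was described in the same fits, with calls by edgeR's quasi-likelihood test. The shares to set beside the counts of the 5 lists are those of all genes tested. These were 21.8% lower and 26.5% higher in WT cells and 21% lower and 27.8% higher in Cfp1 -/- cells. Of 18 other SR and SR-related proteins, 12 fell and 1 rose in WT cells, with a median log2 fold change of -0.60, and 10 fell and 1 rose in Cfp1 -/- cells, with a median of -0.41. Bclaf1, an SR-related protein of the nucleus, fell from 24418 ± 2453 to 9946 ± 458 normalized counts (SD, n = 2, log2 fold change -1.25) and Srsf10, an SR protein that represses splicing when dephosphorylated, from 8598 ± 225 to 3648 ± 250 (-1.19) in WT cells. Srsf12, a relative of Srsf10, went the other way. Its normalized counts were 38.2 and 38.6 in untreated and 551 and 653 in treated WT cells, and 59.3 and 51.6 against 500 and 517 in Cfp1 -/- cells, log2 fold changes of 4.01 ± 0.218 (SE, adjusted p = 3.08e-06) and 3.24 ± 0.208 (adjusted p = 6.62e-06). It was the single gene of the 5 splicing lists that passed the stricter limits as higher in either line.

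Of the 10 tested among the other SR kinases, phosphatases and transport factors, 6 fell and 0 rose in WT cells (median -0.60) and 5 fell and 0 rose in Cfp1 -/- cells (median -0.50). The catalytic subunits of protein phosphatase 1 Ppp1cb, at 12181 ± 181 against 5484 ± 161 normalized counts (SD), and Ppp1cc, at 2905 ± 413 against 1377 ± 3.67, had the lowest log2 fold changes in WT cells, -1.11 and -1.03. In Cfp1 -/- cells these were -0.57 and -0.96.

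Heterogeneous nuclear ribonucleoproteins (hnRNPs), which often oppose SR proteins at exons, were lower in 17 and higher in 1 of 23 cases in WT cells (median -0.62) and lower in 12 and higher in 1 in Cfp1 -/- cells (median -0.45). Hnrnpr (5558 ± 190 against 1508 ± 195 normalized counts, log2 fold change -1.84) and Hnrnpdl (15068 ± 443 against 4256 ± 84.7, -1.78) fell most in WT cells, and in Cfp1 -/- cells they changed by -1.39 and -1.42. Ptbp1, the polypyrimidine tract binding protein, was the one that rose, from 8708 ± 808 to 14394 ± 222 normalized counts (0.77, adjusted p = 0.00108) in WT and by 0.40 (adjusted p = 0.0281) in Cfp1 -/- cells.

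Of 30 core spliceosome genes, 11 fell and 2 rose in WT cells (median -0.38) and 13 fell and 0 rose in Cfp1 -/- cells (median -0.37). Cdc5l, a component of the complex around Prp19, had the lowest log2 fold change in WT cells at -1.16, followed by the tri-snRNP protein Prpf31 at -0.76, and in Cfp1 -/- cells these were at -1.25 and -0.69. The small proteins Sf3b5 (0.58, adjusted p = 0.0116) and Snrpg (0.56, adjusted p = 0.0156) rose in WT cells, whereas their values of 0.16 and -0.03 in Cfp1 -/- cells did not pass, and the difference between the lines did not pass for either (adjusted p = 0.547 and 0.402).

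Of 15 genes of nonsense-mediated decay and the exon junction complex, the pathway that removes unproductive SR and Clk transcripts, 5 fell and 3 rose in WT cells (median -0.25) and 6 fell and 1 rose in Cfp1 -/- cells (median -0.39). In WT cells that is 33.3% lower and 20% higher, against 21.8% and 26.5% of all genes tested. In Cfp1 -/- cells it is 40% and 6.67%, against 21% and 27.8%. These shares were not tested against each other. The kinase Smg1 fell in both lines (-0.78 in WT and -0.82 in Cfp1 -/- cells), and Smg9, a partner of Smg1, rose in both (0.92 and 0.65). Upf3b rose in WT cells (1.04, adjusted p = 0.00238) and had a value of 0.53 (adjusted p = 0.0541) in Cfp1 -/- cells, where it passed with the replicate block (0.51, adjusted p = 0.0271) and under total count scaling (0.75, adjusted p = 0.0151). No gene of the 5 lists passed the test of the difference between the lines.

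The counts of these 5 lists, given here in the order in which they were described, moved with the scaling. Under total count scaling the counts of genes called lower in WT cells were 7 of 18, 5 of 10, 8 of 23, 4 of 30 and 3 of 15 in these 5 lists and 3 of 10 among the SR factors and Clk kinases, and those called higher were 1, 0, 1, 5 and 5 in the lists. Of all genes tested, that scaling called 11.7% lower and 36.4% higher in WT cells and 13.1% and 33.4% in Cfp1 -/- cells. In Cfp1 -/- cells that scaling gave 8, 3, 6, 5 and 3 lower and 1, 0, 1, 1 and 4 higher, and Ppp1cb no longer passed (-0.36, adjusted p = 0.0759). With the replicate block, 13, 7, 18, 14 and 5 were lower in WT cells and 12, 8, 16, 17 and 8 in Cfp1 -/- cells, and the higher calls of nonsense-mediated decay genes numbered 4 and 3. The share of all genes called with the block is not given here.

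**Figure D5:**
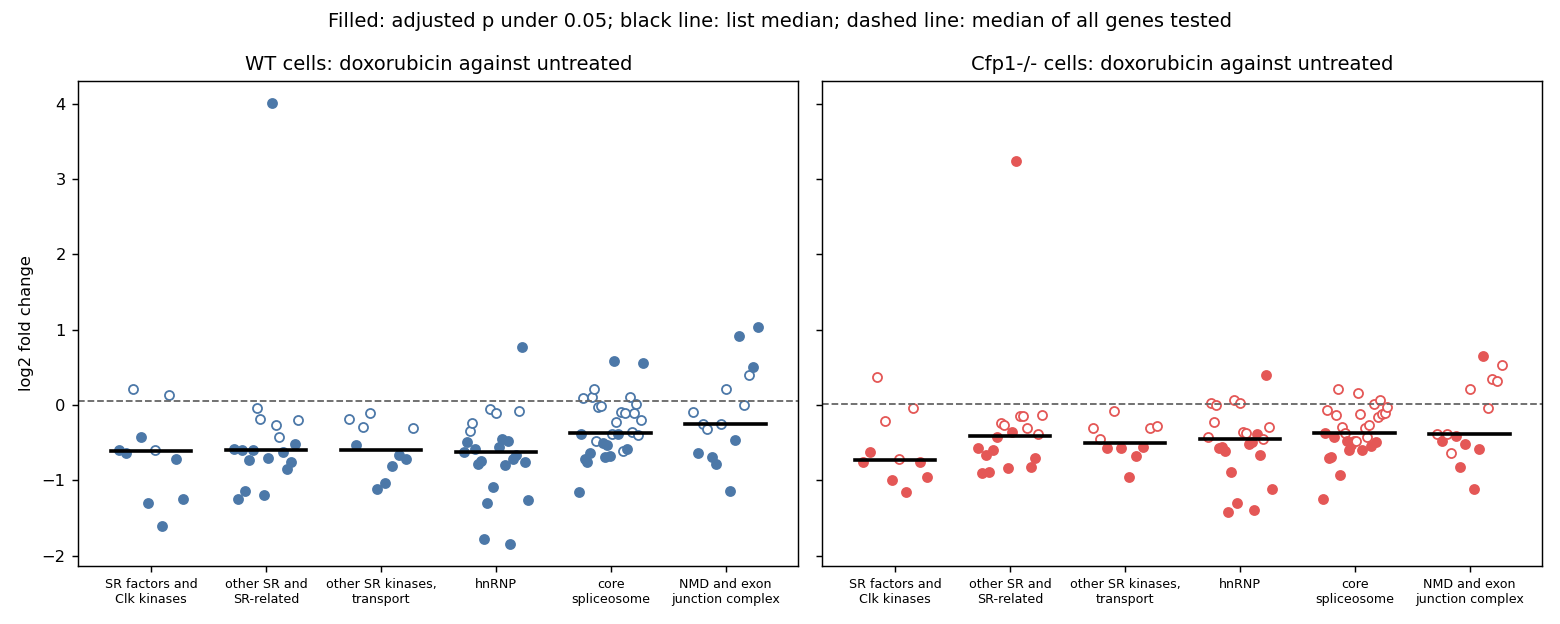
Log2 fold change upon doxorubicin treatment (vertical axis) of each gene of 6 lists in WT (left) and Cfp1 -/- cells (right), filled where edgeR's adjusted p-value was under 0.05, with the list medians as black lines and the median of all genes tested dashed. In WT cells the medians are -0.62, -0.60, -0.60, -0.62, -0.38 and -0.25 against 0.06 for all genes, and Srsf12 stands alone at 4.01.

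Between the untreated lines, hnRNP genes were called lower in Cfp1 -/- cells in 11 of 23 cases and higher in 1, and core spliceosome genes lower in 2 and higher in 7 of 30, against 16.1% and 17.9% of all genes tested. Under total count scaling, where 10.2% of all genes were lower and 24.4% higher, the hnRNP genes were lower in 5 and higher in 2 cases and the core spliceosome genes lower in 0 and higher in 11. Other SR and SR-related proteins were lower in 3 of 18 and higher in 0 (0 and 2 under that scaling). With doxorubicin the hnRNP genes were lower in 6 and higher in 0 of 23 and the core spliceosome genes lower in 0 and higher in 2 of 30, against 10.8% and 15.1% of all genes tested. Under total count scaling 7.96% of all genes were lower and 17.9% higher between the treated lines. There the core spliceosome genes were higher in 4 and lower in 0, and the hnRNP genes lower in 5 and higher in 0. With the replicate block, whose share of all genes is not given here, the core spliceosome genes were higher in 5 and lower in 1. The hnRNP genes were lower in 9 and higher in 1 with that block. These counts are descriptions and were not tested against all genes.

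Srsf3 at chr17:29169618-29180311 (NCBIm37, plus strand) is followed at a distance of 47.6 kb by Cdkn1a, the p53 target that encodes p21, with 0 genes of the tables between them. In WT cells Cdkn1a stood at 131 and 226 normalized counts without and 1805 and 1655 with doxorubicin, while Srsf3 stood at 15677 and 15353 against 5138 and 4708. In Cfp1 -/- cells Cdkn1a stood at 338 and 263 against 1294 and 1165, and Srsf3 at 9896 and 11683 against 5176 and 4197. The neighbours moved in opposite directions in both lines, by 3.33 and -1.61 on the log2 scale in WT cells and by 2.07 and -1.16 in Cfp1 -/- cells.

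A gene count sums all exons, so productive and unproductive transcripts cannot be told apart in these tables. The annotation of the same build lists 13 transcripts of Clk1, of which 2 are protein coding, 2 are marked for nonsense-mediated decay and 5 retain an intron. Clk4 has 14 (4, 3 and 7 of these kinds), Clk2 has 11 (5, 1 and 4) and Clk3 has 1, which is protein coding. Srsf3 has 5 transcripts (1, 1 and 3), Srsf1 has 7 (3, 2 and 2) and Srsf5 has 13 (6, 2 and 3), whereas the 3 transcripts of Srsf7 are all protein coding. Srsf6 has 3 transcripts (1, 0 and 0) and Srsf2 has 5 (3, 1 and 1). These kinds are labels of the annotation, and the part of unproductive transcripts in the changes was not tested.

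The genes of 9489 with a mean normalized count of at least 200 whose log2 pattern over the 8 libraries was most like the mean pattern of the 6 SR factors were Ccnt2 (Pearson r = 0.997), Zcchc7 (0.996), Rcc2 (0.993), Zfp42 (0.992) and Azin1 (0.991). For the 4 kinases they were Fam98a (0.998), Sf3b3 (0.995), Mtdh (0.995), Atp2a2 (0.995) and Smc6 (0.994). These 8 points are 4 groups of 2 and share their scaling, so r mostly describes the group means. Ccnt2, the cyclin T2 gene, stood at 7221, 3947, 6204 and 3409 normalized counts in untreated WT, treated WT, untreated Cfp1 -/- and treated Cfp1 -/- cells, and Fam98a at 1809, 995, 1247 and 768 in the same order. The ES cell marker Zfp42 is the one marker gene among the 10, at 12814, 1212, 5056 and 999.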

How the data were processed

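RNA of 8 biological replicates was depleted of ribosomal RNA and made into strand-specific libraries (Script-Seq V2). Per the labels and the study's methods, the authors used STAR (2.2.1 in the submitters' processing notes) to place paired reads on NCBIm37 and counted those unambiguous on the exons of 1 Ensembl gene with HTSeq (stranded, union mode). They deposited raw counts per technical replicate and normalized counts per biological replicate, a signal obtained by dividing the sum by its DESeq size factor. The table has no other columns per sample.

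Raw counts were summed over technical replicates and fitted for all genes with edgeR 4.0.16 (R 4.3.3): filterByExpr, TMM, 1 coefficient per group, glmQLFit and glmQLFTest, two-sided, Benjamini-Hochberg adjustment. Standard errors come from the test statistic. Values per library, means and SDs are the deposited normalized counts. Exon lengths came from the annotation of the same build (22324 of 22375 genes matched). Alternatives were DESeq2's size factors, DESeq2 1.42.0, total count scaling, no filter, the replicate block, fits on the groups compared, subsets of technical replicates, and each biological replicate left out. Named genes are the 10 members, the 2 with the largest called change per direction in each list in the WT response, and the 5 most alike in pattern per class. A gene that this rule names is not reported here. The members, lists and tests were chosen with earlier results of these data known. Nothing states that replicates were separate cultures, so p-values measure the spread between these samples, which may be technical. Same-numbered replicates of different groups deviated together (correlation 0.129 to 0.407 over 6 pairs of groups), though no source says what they share. Of the fits, only the replicate block took them as pairs, and the main fit did not.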

Additional observations from a re-analysis of the deposited data

Results flagged for a closer look

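Clk4 was picked out because its ratio of Cfp1 -/- to WT cells had opposite signs with and without doxorubicin in both replicate numbers, at -0.04 and -0.05 on the log2 scale without and 0.23 and 0.13 with doxorubicin. The difference between these ratios, 0.22 ± 0.171 (SE) in edgeR's quasi-likelihood test, did not pass the threshold (adjusted p = 0.706), and the untreated libraries of both lines overlapped.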

How the results depend on the processing

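Srsf1, Srsf3 and Srsf7 were called lower upon treatment in both lines under all alternatives except the stricter call, a 2.5-fold change and a mean of 200. In edgeR's main fit, 1 gene (Srsf3) passed that call in WT cells. There, 0 passed it in Cfp1 -/- cells or between the lines in either state. By DESeq2's Wald test Srsf1 (-1.35) was also beyond 2.5-fold in WT cells. Total count scaling gave 3 lower and 2 higher in WT cells, 1 higher in Cfp1 -/- cells, and 0 lower untreated and 1 lower treated between the lines. Clk3 alone passed as higher in Cfp1 -/- cells with first technical replicates alone and without the second runs of the treated replicates 1 (1 gene in each). The counts of 2 genes lower in Cfp1 -/- cells were the least stable. Untreated, 4 were lower with DESeq2 size factors, with the DESeq2 Wald test, without a filter, with first technical replicates alone and without the 2 second runs. Fits on the groups compared gave 4 lower and 1 higher untreated, and 1 lower treated. Treated, 4 were lower with DESeq2 size factors, the DESeq2 Wald test and without the 2 second runs. The replicate block gave 5 lower and 1 higher untreated and 4 lower treated, and 8 and 7 lower upon treatment in WT and Cfp1 -/- cells. It changed no call of the response difference, and the share of all genes called with it is not given here. Leaving out 1 biological replicate gave 6 to 8 lower in WT cells and 6 to 7 in Cfp1 -/- cells, 0 to 4 untreated, and 0 to 2 lower and 0 to 1 higher treated (Srsf2, without replicate 1 of treated WT cells), the lone library being assumed to vary like the rest.

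Log2 values that changed sign passed no test. Under total count scaling these were Srsf5 (0.18) and Clk4 (0.00) in the Cfp1 -/- response, Clk2 in the response difference (-0.09), Clk3 (0.04) and Clk4 (0.18) between untreated and Srsf3 (0.04) and Srsf7 (0.02) between treated lines. Clk2's difference was -0.04 with first technical replicates and -0.01 without the 2 second runs, and Clk4 untreated was 0.02 with first technical replicates and 0.01 on the groups compared. Clk3 between treated lines was -0.02 with DESeq2's size factors and Wald test, -0.00 without a filter and -0.01 on the groups compared. With 1 replicate left out, Srsf5 ranged from -0.16 to 0.06 in the Cfp1 -/- response. Response differences ranged from -0.53 to 0.43 (Srsf2), -0.26 to 0.16 (Srsf6), -0.07 to 0.05 (Clk2) and -0.02 to 0.31 (Clk3). Clk4 untreated ranged from -0.04 to 0.02, and between treated lines Srsf1 ranged from -0.44 to 0.07, Srsf3 from -0.22 to 0.11, Srsf7 from -0.22 to 0.06 and Clk3 from -0.03 to 0.02. The causes were not tested. A minimum mean of 50 in place of 200 named the same like-pattern genes.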
